A study of Mus musculus with 12 samples.

Results

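The constant region genes of the immunoglobulins were described as a set of 10 mouse genes, namely the heavy chain genes Ighm, Ighg1, Ighg2b, Ighg2c, Ighg3 and Igha, the light chain genes Igkc, Iglc1 and Iglc2, and Jchain. They were chosen by their log2 fold changes in control tissue after lesion, where immunoglobulin genes fell most, and they were found by symbol among the 54838 genes counted. All 10 passed the filter on low counts that left 31109 genes for testing. RNA was sequenced from spinal cord of mice at postnatal day 60, in 4 groups with 3 libraries each. Control mice were Olig1+/+;Tet1fl/fl and mutant mice were Olig1cre/+;Tet1fl/fl, so that the floxed Tet1 alleles were shared by all 4 groups and the cre, driven from the Olig1 locus and active in the oligodendroglial lineage, was carried by the mutant alone. Each genotype was examined 4 days after lysolecithin (LPC), a detergent-like lipid that strips myelin where it is injected, had been given (4dpl), and in unlesioned tissue from the contralateral side. The tissue was dissociated and enriched for oligodendroglial cells on a Percoll density gradient, and the cells were not sorted. The labels do not state which libraries came from the same mouse, so the p-values measure the spread between libraries.

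Immunoglobulins are made by B cells and, in bulk, by plasma cells, the secretory end stage of the B cell lineage. A heavy chain and a light chain each join a rearranged variable region, which binds antigen, to a constant region, and the heavy chain constant region sets the antibody class. IgM, from Ighm, is the class of naive B cells and of the first response, class switching replaces it by IgG (the Ighg genes) or IgA (Igha), and the J chain holds the polymers of IgM and secretory IgA together. The healthy spinal cord parenchyma holds few B cells, and such cells are found in blood, in meninges and in the marrow of the vertebrae and skull. In bulk RNA, fewer cells of a type and less RNA in each cell cannot be told apart.

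Total counts were between 34805086 and 67251544 per library. Levels are given as CPM, counts relative to the library size after TMM scaling (edgeR's trimmed mean normalization). Oligodendrocyte genes were abundant in every library, with a summed level of 12 marker genes from 14614 to 68994 CPM. Red cell genes were summed to 12177 to 100175 CPM and neutrophil genes to 23290 to 127148 CPM. The neutrophil sum was above that of the oligodendrocyte genes except in control 4dpl replicate 3 and mutant 4dpl replicates 1 and 3. It was 127148 against 14614 CPM in mutant unlesioned replicate 2. The gene-level count of Tet1 was between 9.94 and 21.5 CPM and did not separate the genotypes, which are taken from the labels throughout.

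The IgG constant genes lie next to each other on chromosome 12 and resemble each other, so the start of their first constant exon is shown to make clear how far reads of the subclasses can be told apart. The stretches are coding and are given 5′ to 3′ on the minus strand from the GENCODE annotation of GRCm38, at chr12:113361143-113361232 for Ighg3, chr12:113330434-113330523 for Ighg1, chr12:113307844-113307933 for Ighg2b and chr12:113288843-113288932 for Ighg2c. Capitals mark the 29 of 90 positions at which the 4 genes are not all identical.
Ighg3: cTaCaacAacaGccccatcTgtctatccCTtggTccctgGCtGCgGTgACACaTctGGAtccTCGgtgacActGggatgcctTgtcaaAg
Ighg1: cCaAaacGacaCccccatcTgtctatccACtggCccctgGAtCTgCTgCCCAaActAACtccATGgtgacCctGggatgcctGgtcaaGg
Ighg2b: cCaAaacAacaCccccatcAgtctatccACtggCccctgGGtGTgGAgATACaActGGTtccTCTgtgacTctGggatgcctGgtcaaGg
Ighg2c: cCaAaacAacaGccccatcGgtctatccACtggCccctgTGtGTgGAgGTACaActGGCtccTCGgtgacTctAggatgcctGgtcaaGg
Over the whole exon of 291 bases, Ighg3 was 79.0% identical to Ighg1, and Ighg1, Ighg2b and Ighg2c were 87.6% to 88.3% identical to each other. The hinge exon, which encodes the flexible stretch between the antigen-binding arms and the stem of the antibody, differs also in length.
Ighg3: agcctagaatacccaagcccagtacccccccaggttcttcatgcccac
Ighg1: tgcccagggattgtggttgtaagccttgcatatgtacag
Ighg2b: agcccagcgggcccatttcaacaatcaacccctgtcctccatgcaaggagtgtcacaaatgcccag
Ighg2c: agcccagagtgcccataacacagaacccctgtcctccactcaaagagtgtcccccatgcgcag
These hinge exons lie at chr12:113360529-113360576, chr12:113329844-113329882, chr12:113307261-113307326 and chr12:113288263-113288325, in the same order. The lambda constant genes on chromosome 16 form the other family of close copies, and capitals below mark the 21 of 90 positions that vary between the 3 expressed genes at chr16:19061982-19062071 (Iglc1), chr16:19198763-19198852 (Iglc2) and chr16:19065592-19065681 (Iglc3).
Iglc1: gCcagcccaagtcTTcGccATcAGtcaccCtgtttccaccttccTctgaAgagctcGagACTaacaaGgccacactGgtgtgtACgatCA
Iglc2: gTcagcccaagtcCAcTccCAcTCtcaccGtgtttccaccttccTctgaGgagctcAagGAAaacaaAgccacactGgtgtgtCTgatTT
Iglc3: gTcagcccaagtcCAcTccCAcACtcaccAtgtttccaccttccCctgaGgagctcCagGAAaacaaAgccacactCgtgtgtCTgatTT
Iglc2 and Iglc3 were 94.4% identical over this stretch. Of all windows of 100 bases, the read length, in the transcripts of the 10 genes, 0 were found without a mismatch in a transcript of another gene. The span of Igkc overlaps that of Gm30211, that of Iglc1 overlaps 2010309G21Rik on the opposite strand, and that of Iglc2 holds the joining segment Iglj2. The strand setting of the counting was not stated, so reads of these overlaps may be split between the genes.

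Per kilobase of exon, Igkc, which encodes the constant region of the kappa light chain, had the highest level, at 909 ± 651 CPM per kb (SD, n = 12 libraries), and it exceeded Igha in 12 of 12 libraries. Igha followed with 189 ± 174 CPM per kb and Ighm with 117 ± 53.1 CPM per kb, and each was the higher of the pair in 6 of 12 libraries, so that their order was not fixed. Iglc1 had 86.1 ± 133, Jchain 48.9 ± 40.0, Ighg2c 30.1 ± 25.4, Iglc2 14.5 ± 13.6 and Ighg2b 11.9 ± 18.5 CPM per kb. Neighbours in this order from Ighm to Ighg2b exceeded the next gene in 7 to 9 of 12 libraries, which is within their spread. Ighg3, at 1.67 ± 5.61 CPM per kb, and Ighg1, at 1.08 ± 1.89 CPM per kb, were lowest, and Ighg3 was above Ighg1 in just 4 of 12 libraries.

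**Figure D1:**
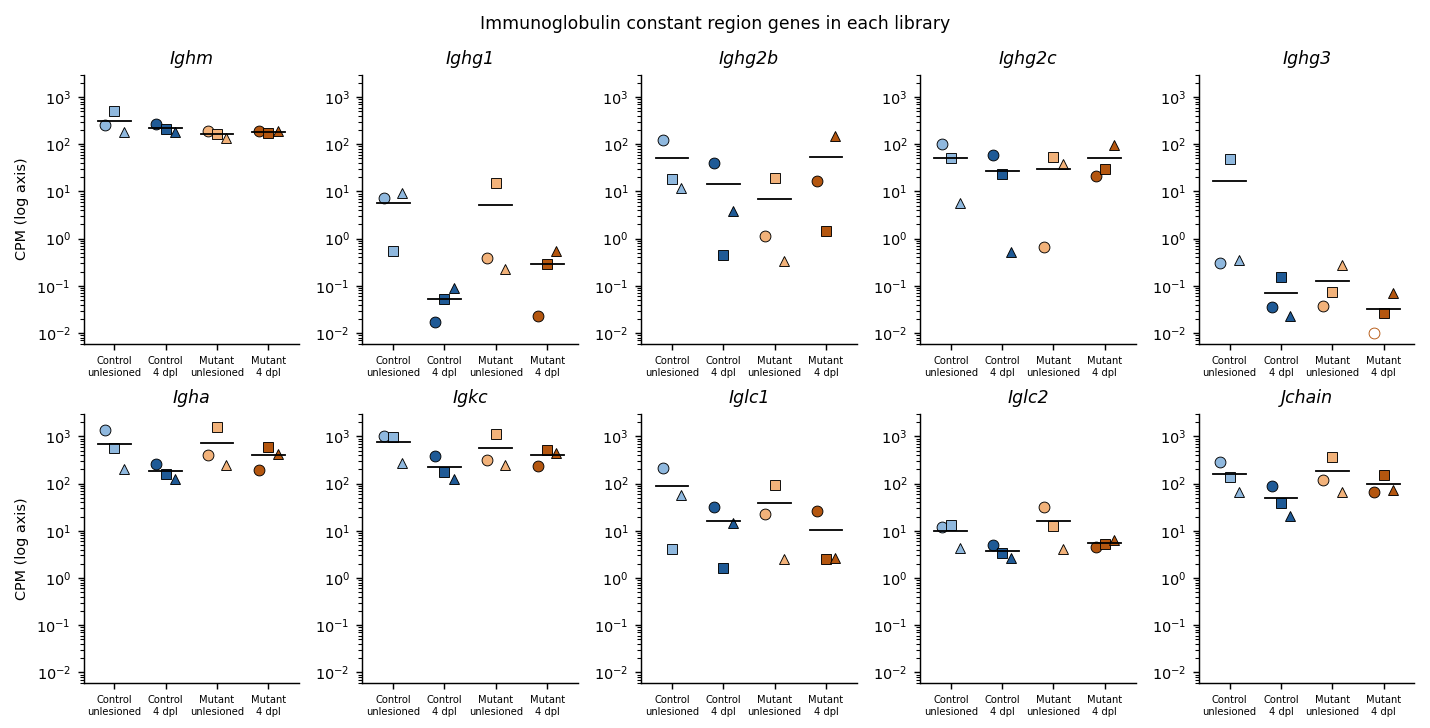
Level of each constant region gene in CPM (log axis) in every library, by group; circles, squares and triangles are replicates 1, 2 and 3, the bars are group means, and the open circle at the foot of the Ighg3 panel is a library with a count of 0. Ighm stayed between 137 and 516 CPM, whereas Ighg3 reached 48.9 CPM in control unlesioned replicate 2 and at most 0.352 CPM in any other library.

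Ighm, the IgM heavy chain on chromosome 12 from 113418558 to 113422730, was the least variable gene of the set. Its level was 261, 516 and 178 CPM in the control unlesioned libraries and 271, 209 and 181 CPM in the control 4dpl libraries. The mutant libraries had 190, 166 and 137 CPM unlesioned and 189, 173 and 187 CPM at 4dpl. The range over the 12 libraries was 3.76-fold, the groups overlapped within each genotype, and the highest value was that of control unlesioned replicate 2.

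Ighg3 (chromosome 12, 113356224 to 113361232), the IgG3 heavy chain, is made largely against carbohydrate antigens. It had 16, 2302 and 18 counts in the control unlesioned libraries, equal to 0.301, 48.9 and 0.352 CPM. At 4dpl the control libraries had 2, 9 and 1 counts, the mutant unlesioned libraries 2, 4 and 12, and the mutant 4dpl libraries 0, 1 and 4. The count of 0 allows a level of up to 0.0636 CPM, from 3 counts in that library. One library, control unlesioned replicate 2, thus held 97.3% of the CPM summed over all 12, and the other libraries of its group lay above the highest control 4dpl library, which was at 0.156 CPM.

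Ighg1 (chromosome 12, 113325240 to 113330523), the IgG1 heavy chain of many responses to protein antigens, had 392, 26 and 466 counts in the control unlesioned libraries and 1, 3 and 4 counts at 4dpl. The corresponding levels were 7.36, 0.552 and 9.11 CPM against 0.0175, 0.0520 and 0.0921 CPM. In the mutant it had 21, 789 and 10 counts unlesioned, or 0.387, 14.8 and 0.226 CPM, and 1, 11 and 30 counts at 4dpl, or 0.0227, 0.295 and 0.539 CPM. The control groups did not overlap, whereas in the mutant the highest 4dpl library lay above the unlesioned replicates 1 and 3. Mutant unlesioned replicate 2 alone held 44.2% of the level summed over all libraries.

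Ighg2b and Ighg2c, whose products bind complement and Fc receptors well, had the highest mean levels of the 4 IgG genes. Ighg2b (113302965 to 113307933) was at 123, 18.2 and 12.1 CPM in the control unlesioned libraries and at 39.9, 0.451 and 3.8 CPM at 4dpl. In the mutant it was at 1.14, 19.3 and 0.340 CPM unlesioned and at 16.3, 1.42 and 146 CPM at 4dpl, so that the highest library of all was a mutant library at 4dpl and the 2 highest, with control unlesioned replicate 1, held 70.4% of the summed level. Ighg2c (113285325 to 113288932) was at 99.2, 50.9 and 5.69 CPM against 58.3, 23.3 and 0.530 CPM in the control, and at 0.682, 52.5 and 38.0 CPM against 21.3, 30.4 and 98.1 CPM in the mutant. Groups overlapped for both genes in both genotypes. By counts, Ighg2c was the leading IgG gene in 7 of 12 libraries and Ighg2b in 5, with shares of the leader from 42.9% (95% Wilson interval 41.6 to 44.2, 5579 IgG counts, control unlesioned replicate 2) to 97.8% (97.0 to 98.4, 1714 IgG counts, mutant unlesioned replicate 3). These intervals cover counting error only.

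Igha (113254830 to 113260236), the heavy chain of IgA, the antibody of mucosal surfaces, was the heavy chain gene with the highest mean level. Its level was 1334, 556 and 203 CPM in the control unlesioned libraries and 263, 160 and 124 CPM at 4dpl. The mutant libraries were at 407, 1549 and 247 CPM unlesioned and at 198, 582 and 418 CPM at 4dpl. The 4dpl libraries of the control lay below or just within the lower edge of the unlesioned range, and those of the mutant lay inside it except for replicate 1.

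Igkc, on chromosome 6 from 70726435 to 70726966, was at 997, 957 and 277 CPM in the control unlesioned libraries and at 380, 174 and 128 CPM at 4dpl. It was at 316, 1122 and 246 CPM in the mutant unlesioned libraries and at 240, 524 and 444 CPM at 4dpl. In the control a low unlesioned library, replicate 3, brought the ranges into overlap, and in the mutant 4dpl replicates 2 and 3 lay between the unlesioned libraries. Iglc1 (chromosome 16, 19061618 to 19062071), the constant region of lambda 1, ranged 130-fold over the libraries, with 210, 4.06 and 57.3 CPM in the control unlesioned, 32.5, 1.61 and 14.7 CPM in the control 4dpl, 22.5, 93.2 and 2.54 CPM in the mutant unlesioned and 25.7, 2.58 and 2.62 CPM in the mutant 4dpl libraries. Iglc2 (chromosome 16, 19198396 to 19200351), the constant region of lambda 2, was at 12.1, 13.4 and 4.36 CPM against 5.02, 3.38 and 2.69 CPM in the control and at 32.5, 12.4 and 4.12 CPM against 4.57, 5.23 and 6.49 CPM in the mutant. The highest library differed between the lambda genes, being control unlesioned replicate 1 for Iglc1 and mutant unlesioned replicate 1 for Iglc2.

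Jchain, on chromosome 5 from 88519809 to 88527891, was at 280, 141 and 67.6 CPM in the control unlesioned and 88.9, 39.6 and 20.3 CPM in the control 4dpl libraries. In the mutant it was at 121, 359 and 67.8 CPM unlesioned and 67.4, 151 and 74.1 CPM at 4dpl. Its level per kilobase kept close to that of Igha, with a ratio of Jchain to Igha from 0.17 to 0.36 over the 12 libraries and means of 0.28 ± 0.07, 0.26 ± 0.09, 0.28 ± 0.04 and 0.27 ± 0.09 (SD, n = 3) in the control unlesioned, control 4dpl, mutant unlesioned and mutant 4dpl groups.

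The question of the lesion contrast was how the preparation changed during the first days after demyelination in each genotype. In the control the log2 fold change of 4dpl against unlesioned, from the edgeR quasi-likelihood fit, was below 0 for 10 of 10 genes and for 60.9% of all genes tested, with a median of -1.76 against -0.36 over all genes tested, and of -0.95 with the paper's sample numbers as a replicate block. Since this contrast chose the genes, these values describe the choice and carry no test. Ighg3 had the lowest value at -7.75 (SE 1.79), Ighg1 had -6.71 (SE 1.70), and the other 8 lay between -2.47 for Iglc1 and -0.53 for Ighm. Ighg3 and Ighg1 were the 2 genes past both thresholds for a call, in a contrast in which 10.1% of all genes tested were called, 5.01% as lower. They were also the 2 genes whose control libraries did not overlap, a pattern that 21.4% of all genes showed in this direction. The Ighg3 value rests on control unlesioned replicate 2, without which it was -2.11, whereas Ighg1 stayed between -7.23 and -6.19 with any 1 library left out. When control unlesioned replicate 2 or control 4dpl replicate 1 or 2 or 3 was left out, 0 of the 10 genes were called. Over all genes these fits called 1, 4, 2 and 1839, against 3150 with all 12 libraries. The lost calls thus do not single out the 10 genes.

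In the mutant, whose libraries had no part in the choice, 0 of the 10 genes were called by edgeR (p-value of 0.01 and adjusted p-value of 0.05), where 0.135% of all genes were, 0.113% as lower. The log2 fold change was below 0 for 7 of 10 genes, as for 55.0% of all genes, with a median of -0.89 against -0.18 over all genes. The unadjusted p was under 0.05 for 2 of the 10, as for 33.8% of all genes, and these were Ighg1 at -4.13 (SE 1.43, adjusted p = 0.0818) and Iglc2 at -1.59 (SE 0.58, adjusted p = 0.0913). DESeq2 called both, with adjusted p of 0.0348 for Ighg1 and 0.0249 for Iglc2, in a contrast in which it called 17.0% of all genes. Ighg1 went from -4.13 to -0.07 without mutant unlesioned replicate 2, the library with 789 counts. Ighg2b had the opposite sign, at 2.98 (SE 1.70, adjusted p = 0.221), and was at 0.39 when mutant 4dpl replicate 3 was left out. None of the 10 genes had mutant groups that did not overlap, a pattern seen for 23.2% of all genes downwards and 18.8% upwards.

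**Figure D2:**
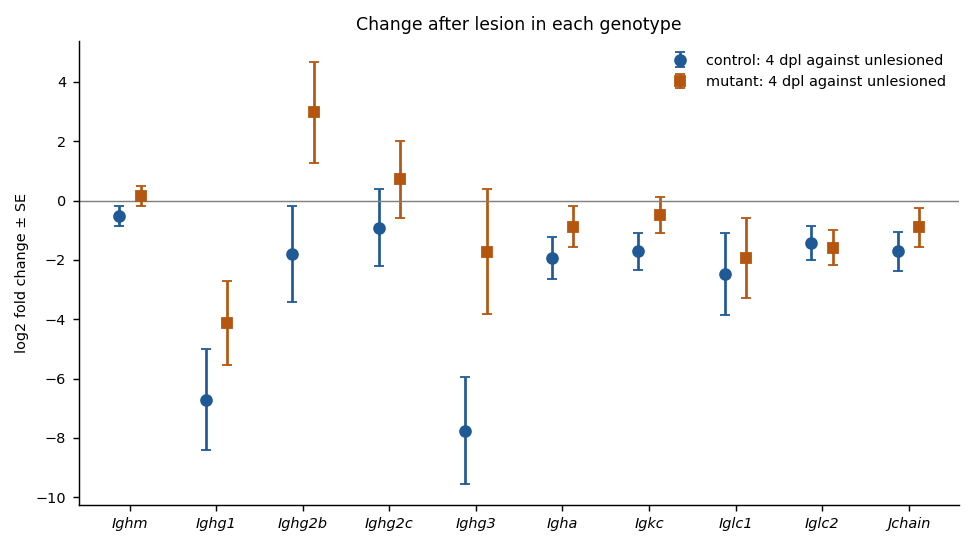
log2 fold change of 4dpl against unlesioned tissue with its standard error for the 10 genes, in the control (circles) and the mutant (squares), from the edgeR fit to all 12 libraries. The control values, which chose the genes, run from -7.75 to -0.53, and the mutant values run from -4.13 for Ighg1 to 2.98 for Ighg2b.

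The genotypes were then compared within each condition. In unlesioned tissue, where the comparison shares its control libraries with the choice of the genes, 0 of the 10 genes and 0.0% of all genes were called, and 2 of the 10 had an unadjusted p under 0.05, against 5.22% of all genes. These were Ighg3, at a log2 fold change of -7.04 for mutant against control (SE 1.72, adjusted p = 0.693), and Ighm, at -0.95 (SE 0.33, adjusted p = 0.770). Ighg3 was also the only member whose groups did not overlap, lower in the mutant as were 6.28% of all genes while 4.09% were higher, and without control unlesioned replicate 2 its difference was -1.36. The log2 fold change was below 0 for 7 of the 10 genes and for 48.2% of all genes. At 4dpl, where the control libraries are again shared with the choice, 0 of the 10 genes and 0.0% of all genes were called by edgeR, 0 had an unadjusted p under 0.05, and DESeq2 called 0 of the 10 and 0.73% of all genes. No member had groups that did not overlap at 4dpl, a pattern of 5.44% of all genes downwards and 7.34% upwards. The log2 fold change of mutant against control was below 0 for 3 of the 10 genes, against 45.9% of all genes, with a median of 0.85 against 0.05 over all genes and the largest value at 2.44 (SE 1.68, adjusted p = 0.868) for Ighg1.

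The interaction, which asks whether the change after lesion differed between the genotypes and uses the libraries that chose the genes, was below 0 for 1 of the 10 genes, Iglc2, and for 45.2% of all genes, with a median of 1.14 over the 10. It called 0 of the 10 and 0.0% of all genes by edgeR, with 0 unadjusted p under 0.05 among the 10, and DESeq2 also called 0 of the 10 and 0.0% of all genes. A larger fall in the control than in the mutant was therefore not shown, and with standard errors of 0.47 for Ighm to 3.23 for Ighg3 the intervals are wide.

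Summed over the 10 genes, the level was 3324, 2305 and 814 CPM in the control unlesioned libraries and 1139, 612 and 475 CPM in the control 4dpl libraries. For the mutant libraries the sum was 1091, 3389 and 743 CPM unlesioned and 763, 1470 and 1378 CPM at 4dpl. The 3 highest libraries, control unlesioned replicates 1 and 2 and mutant unlesioned replicate 2, were unlesioned, and the remaining unlesioned libraries lay among those at 4dpl. The mutant medians ran the other way from its means, at 1091 CPM unlesioned and 1378 CPM at 4dpl against means of 1741 ± 1438 and 1203 ± 384 CPM (SD, n = 3), because the mean is carried by replicate 2.

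The make-up of the antibody classes was then read within each library, as shares of the heavy chain level per kilobase, which do not depend on the total. Ighm made up 18%, 49.8% and 50.9% of it in the control unlesioned libraries and 46.9%, 57.4% and 65.0% at 4dpl. Igha made up 65.1%, 37.9% and 40.9% unlesioned and 32.2%, 31.0% and 31.5% at 4dpl. In the mutant, Ighm held 38.5%, 12.1% and 36.8% unlesioned and 49.4%, 27.2% and 25.3% at 4dpl, while Igha held 58.2%, 80.0% and 46.7% and then 36.5%, 64.8% and 40.0%. The Igha share was thus below the unlesioned range in all 3 control libraries at 4dpl and overlapped it in the mutant. Because the control libraries chose the genes, their separation carries no test, and a difference between the genotypes was not tested. The 4 IgG genes together held between 0.42% in mutant unlesioned replicate 1 and 32.8% in mutant 4dpl replicate 3, and Ighd, which encodes the IgD of mature naive B cells, held 0.46% to 3.21%. Ighe, the IgE heavy chain, had a count of 0 in all 6 control libraries and at most 0.09% of the heavy chain level elsewhere.

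**Figure D3:**
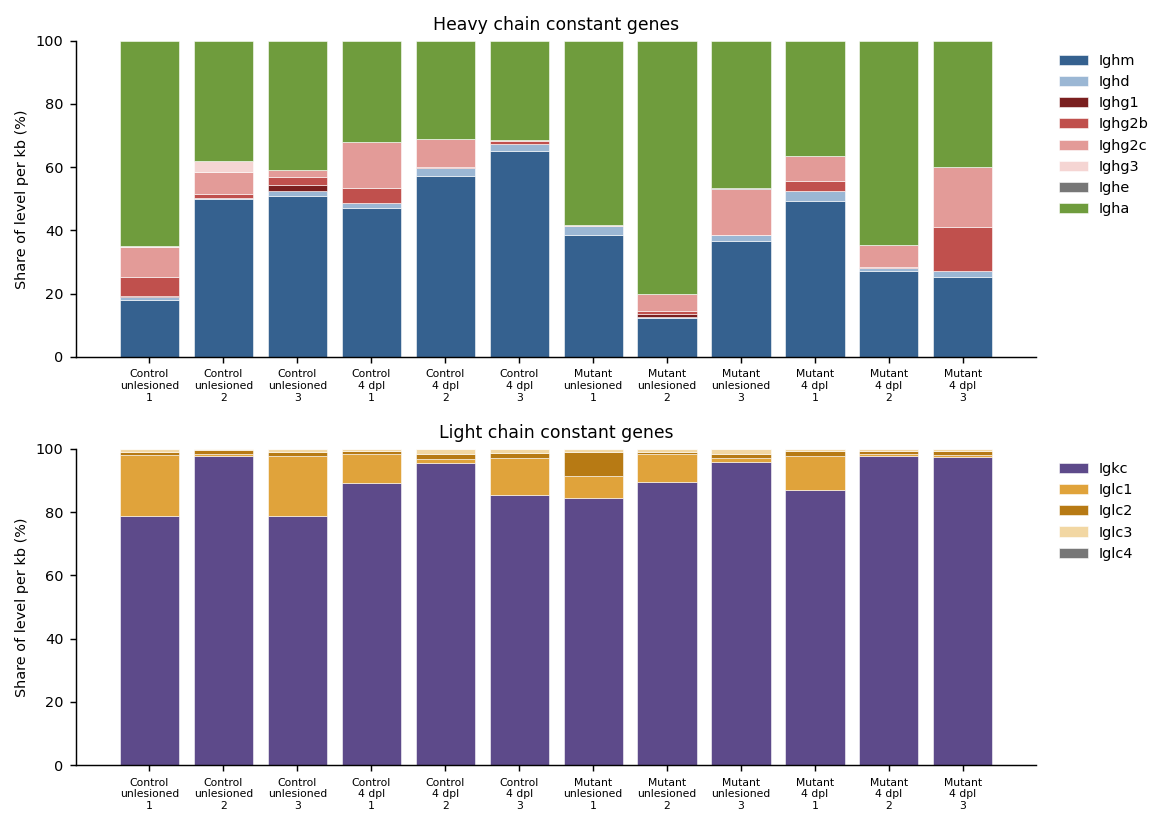
Share of each constant gene in the heavy chain (upper) and light chain (lower) level per kb of exon, in percent, for each of the 12 libraries. Igha and Ighm together fill most of every heavy chain bar, Igha reaches 80.0% in mutant unlesioned replicate 2, and the IgG share is largest, at 32.8%, in mutant 4dpl replicate 3.

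Among light chains, Igkc held between 78.8% and 97.9% of the level per kilobase, and the lambda share was 21.2%, 2.10% and 21.2% in the control unlesioned libraries. Kappa dominance is the rule in the mouse. Iglc1 carried most of the lambda level in control unlesioned replicates 1 and 3, at 19.4% and 19.1% of all light chains. In mutant unlesioned replicate 1, where lambda held 15.6%, Iglc1 held 7.07% and Iglc2 7.55%. Elsewhere Iglc2 held 0.83% to 1.61%. The light chain level exceeded that of the heavy chains in all libraries, by 3.33 ± 0.23 times (SD, n = 3) in the control unlesioned, 2.09 ± 0.45 in the control 4dpl, 2.79 ± 0.41 in the mutant unlesioned and 2.58 ± 0.40 in the mutant 4dpl group. The ratio was lower at 4dpl in all control libraries (1.77 to 2.60) than in unlesioned ones (3.10 to 3.56). Since these control libraries chose the genes, that separation carries no test. The mutant ranges, 2.18 to 2.99 at 4dpl and 2.44 to 3.25 unlesioned, overlapped.

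The variable segments, which the choice of the genes did not use by name, were read to see how many different segments the constant gene counts came with. Of 185 heavy chain segments (Ighv) counted, 127 had at least 10 reads in some library, 33 of these in just 1 library and 2 in all 12. Of 160 kappa segments (Igkv), 117 had at least 10 reads in some library, 20 in just 1 and 4 in all 12. The leading heavy chain segment was a different one in nearly every library, 11 segments over 12 libraries, and there were 8 leading kappa segments. Segments resemble each other and uniquely aligned reads alone were counted, so the share of a segment with close copies is uncertain.

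In control unlesioned replicate 1 the leading heavy chain segment was Ighv1-15 with 7.42% (95% Wilson interval 7.08 to 7.76) of 22720 reads. In control 4dpl replicate 3 it was Ighv1-80 with 44.9% (42.8 to 47.0) of 2169 reads, and its leading kappa segment, Igkv1-135, held 42.1% (40.4 to 43.7) of 3564 reads. In mutant 4dpl replicate 3 Ighv3-6 held 29.5% (28.7 to 30.3) of 11112 reads, and in mutant 4dpl replicate 2 Igkv8-30 held 36.0% (35.2 to 36.9) of 11796 reads. Igkv12-44 led the kappa segments in all 3 control unlesioned libraries, at 11.7% to 12.8%. Mutant unlesioned replicate 3 was led by Ighv10-1 with 23.3% of 4469 heavy chain reads and Igkv6-32 with 21.7% of 7032 kappa reads. The leading heavy chain segment held 12.2% in control 4dpl replicate 1 and 15.5% in mutant 4dpl replicate 1. A few segments thus carried a large part of the reads in several 4dpl libraries, though not in all, and in mutant unlesioned replicate 3.

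The evenness of the segments was summarised by their effective number, the number of equally used segments that would give the same diversity. For the heavy chain it was 26.5, 18.9 and 17.3 in the control unlesioned and 15.4, 8.26 and 4.01 in the control 4dpl libraries. In the mutant it was 16.5, 19.9 and 9.70 unlesioned and 11.7, 7.90 and 4.87 at 4dpl. For the kappa chain the values were 21.9, 18.3 and 15 against 14.9, 7.75 and 3.59 in the control and 14, 12 and 8.22 against 11.9, 5.93 and 6.12 in the mutant. The mutant difference in means was -7.18 segments for the heavy chain and -3.46 for the kappa chain (exact permutation test over libraries, two-sided, p = 0.2 for each, the smallest possible being 0.1, adjusted 0.2 over 4 tests). Counted at an equal depth of 2000 reads, the mutant libraries held 102, 85.9 and 120 heavy chain segments unlesioned. At 4dpl they held 90.7, 62.3 and 61.4 (p = 0.2 by the same exact test), and the 2 groups overlapped through replicates 2 and 1. The control libraries held 88.9, 96.9 and 119 unlesioned and 74.9, 89.8 and 91.0 at 4dpl. These control ranges overlapped, whereas those of the control effective numbers did not.

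**Figure D4:**
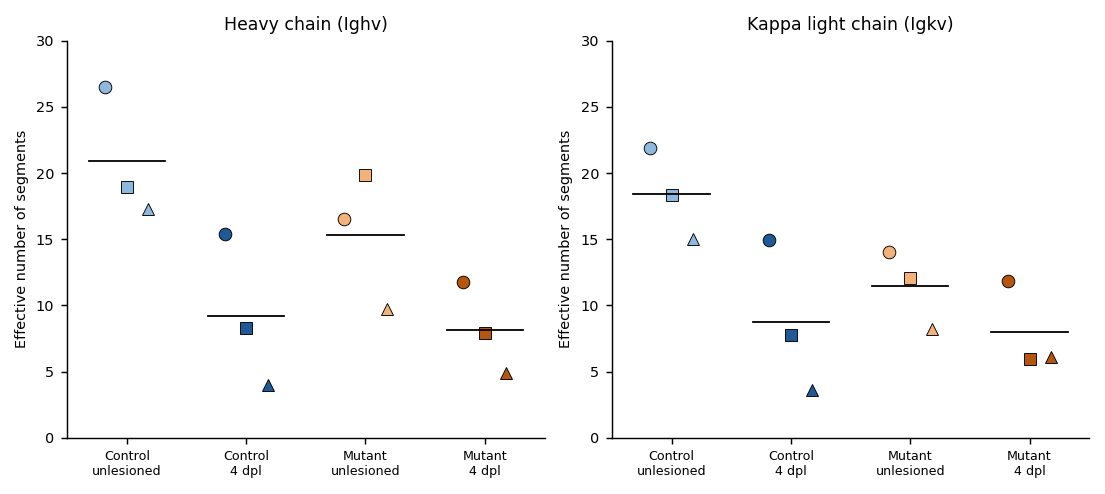
Effective number of Ighv (left) and Igkv (right) segments in each library by group; circles, squares and triangles are replicates 1, 2 and 3 and the bars are group means. The heavy chain means are 20.9 and 9.23 in the control and 15.4 and 8.17 in the mutant, unlesioned and at 4dpl, and the mutant groups overlap.

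Of the variable segments, 72 heavy chain and 80 kappa segments passed the filter. In the mutant edgeR called 0 of either at 4dpl against unlesioned, with 24 and 36 at an unadjusted p under 0.05, as were 33.8% of all genes. Their median log2 fold changes were -1.13 and -1.65, below the -0.18 of all genes, and 57 of 72 and 57 of 80 were below 0. In the control the medians were -2.07 and -2.06, which belong to the contrast that chose the constant genes.

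Of the other constant genes, outside the set, Ighd and Iglc3 passed the filter on low counts and neither was called. Ighd was at 7.43 ± 3.91 and 8.30 ± 1.90 CPM in the control and 9.54 ± 4.10 and 10.8 ± 3.82 CPM in the mutant (SD, n = 3), unlesioned and at 4dpl, with log2 fold changes of 0.16 (SE 0.41) and 0.18 (SE 0.41, edgeR adjusted p = 0.770). Iglc3 had -1.34 (SE 0.54) in the control and -1.17 (SE 0.54, adjusted p = 0.144) in the mutant. Iglc4 had 1 to 7 counts, or 0.14 CPM or less, in the 6 unlesioned libraries and 0 in the 6 at 4dpl, and was not tested. More genes were detected in each unlesioned library (40023 to 44516) than in any at 4dpl (33964 to 37516).

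Genes of the cells that make antibodies were followed by lists of markers, of which 14 were used with 130 genes tested. In the mutant lesion contrast edgeR called 0 of the 130, with 28 at an unadjusted p under 0.05 (33.8% of all genes), and DESeq2 called 12. In the control contrast edgeR called 17 genes higher and 6 lower, 17.7% of the 130 beside the 10.1% of all genes. The list calls fell to 0 when control 4dpl replicate 1 or 2 or control unlesioned replicate 2 was dropped. Over all genes those fits called 4, 2 and 1, against 3150 with all 12 libraries. Dropping replicate 3 gave 2 list calls beside 114 over all genes for control unlesioned, and 10 beside 1839 for control 4dpl. For replicate 3 of the mutant unlesioned group it gave 9 beside 880. With control unlesioned replicate 1 dropped there were 36 beside 7401. The loss of calls was thus not particular to the list genes. It does not show whether single libraries carry their differences. In both genotype comparisons and the interaction edgeR called 0. Its unadjusted p was under 0.05 for 18 genes unlesioned, 10 at 4dpl and 18 for the interaction, beside 5.22%, 6.92% and 3.81% of all genes.

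Of 18 B cell genes, 2 were lower and 2 higher in the control at 4dpl. The lower ones were Pax5 (log2 fold change -2.13, SE 0.40) and Ebf1 (-1.0, SE 0.29), transcription factors that set B cell identity, and the higher ones Cd22 (2.20, SE 0.31) and Blnk (1.41, SE 0.31), which microglia also express. In the mutant the same 4 genes had -0.86 and -0.32, and 1.28 and 0.99, and none was called, with edgeR adjusted p of 0.135, 0.431, 0.0538 and 0.0695. Summed over the list, the B cell genes were at 365 to 481 CPM unlesioned and 499 to 603 CPM at 4dpl in the control, and at 369 to 406 and 483 to 524 CPM in the mutant. The sum, in which Cd37 and Blnk, also found in other immune cells, were highest, was above the unlesioned range at 4dpl in both genotypes, whereas 12 of the 18 genes had a log2 fold change below 0 in each, with medians of -0.23 in the control and -0.09 in the mutant.

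Of 15 plasma cell genes, 2 were higher in the control at 4dpl, Edem2 (0.84, SE 0.21), which acts in the disposal of misfolded secretory proteins, and Tnfrsf13b (0.94, SE 0.25), a receptor for B cell survival factors. In the mutant 0 were called. The summed level of this list, in which Xbp1 and Edem2, which other secretory cells also use, were highest, was 479 to 769 CPM unlesioned and 809 to 1062 CPM at 4dpl in the control, and 456 to 535 CPM and 691 to 858 CPM in the mutant. The log2 fold change was below 0 for 6 of the 15 genes in the control and 4 in the mutant. Other genes of the list, chosen after their values were seen, differed in sign and none was called. Eaf2 had -1.24 (SE 0.41) in the control and -1.15 (SE 0.41) in the mutant, and Derl3 had -0.84 (SE 0.43) and 0.20 (SE 0.43). Prdm1, a transcription factor of plasma cell differentiation, had 1.14 (SE 0.44) in the control and 0.94 (SE 0.44) in the mutant, Sdc1, a surface proteoglycan, had 0.60 (SE 0.82) and 0.36 (SE 0.83), and Irf4, a further transcription factor, had 0.22 (SE 0.37) and 0.42 (SE 0.37). Mzb1, a chaperone of immunoglobulin assembly, was at 11, 6.4 and 3.01 CPM in the control unlesioned libraries and at 3.50, 2.06 and 1.15 CPM at 4dpl (log2 fold change -1.60, SE 0.55, edgeR adjusted p = 0.0703). Mutant libraries had 2.80, 7.11 and 1.95 against 3.23, 3.78 and 4.10 CPM (log2 fold change -0.09, SE 0.54, edgeR adjusted p = 0.914). Tnfrsf17, a survival receptor of plasma cells, was at 2.06 ± 0.75 and 1.23 ± 0.47 CPM in the control and 1.70 ± 0.19 and 1.43 ± 0.42 CPM in the mutant (SD, n = 3).

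Genes of early B cells, which are made in bone marrow, were present in every library. Of the 8 on the list, Igll1 and Vpreb1, the parts of the surrogate light chain that pre-B cells pair with a new heavy chain, were lower in the control at 4dpl, with log2 fold changes of -1.70 (SE 0.48) and -1.87 (SE 0.54). They were at 6.21 ± 0.89 and 4.41 ± 1.76 CPM in the control unlesioned and at 1.90 ± 0.77 and 1.20 ± 0.66 CPM in the control 4dpl libraries. In the mutant they were at 3.56 ± 2.15 and 1.86 ± 1.08 CPM unlesioned and at 2.66 ± 0.49 and 1.78 ± 0.36 CPM at 4dpl (SD, n = 3), with 0 of the list called.

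Receptors for antibodies were tested for 9 of 10 genes. Fcgr2b, the inhibitory Fc receptor, Fcgr3, an activating one, and Fcgrt, which protects IgG from degradation, were higher in the control at 4dpl, with log2 fold changes of 1.29, 0.92 and 0.93 (SE 0.35, 0.25 and 0.27). In the mutant they had 1.07, 0.59 and 0.85, none of them called, with edgeR adjusted p of 0.0726, 0.122 and 0.0708. Pigr, the carrier of polymeric IgA across epithelia, was lower in the control at -2.82 (SE 0.71) and had -2.06 (SE 0.69, adjusted p = 0.0775) in the mutant, at levels of under 1 CPM in each group mean.

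Markers of blood and marrow cells were compared with the constant genes library by library. The 12 neutrophil genes, led by S100a8 and S100a9, which make up much of the soluble protein of these cells, were summed to 101631, 104730 and 48571 CPM in the control unlesioned and 39381, 31433 and 33181 CPM in the control 4dpl libraries. In the mutant they were at 32372, 127148 and 74995 CPM unlesioned and 23290, 115640 and 36009 CPM at 4dpl. Mutant unlesioned replicate 2, which had the highest summed level of the constant genes, also had the highest neutrophil level, and control unlesioned replicates 1 and 2 were high in both. All 12 genes had a log2 fold change below 0 in both genotypes, with medians of -1.41 and -0.45, 0 were called in either, and 7 and 0 had an unadjusted p under 0.05. The 7 red cell genes tested, led by Hbb-bs and Hba-a1, were summed to 89645, 100175 and 34295 CPM in the control unlesioned and 41055, 32844 and 12177 CPM in the control 4dpl libraries. In the mutant the red cell sum was 42916, 18361 and 25786 CPM unlesioned and 44507, 35919 and 27423 CPM at 4dpl, with 0 genes called in either genotype. Mutant unlesioned replicate 2, highest in constant genes, was thus the lowest of its group in red cell genes. No defining marker of either list was at a count of 0 in any library. Their part in the result was not tested.

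**Figure D5:**
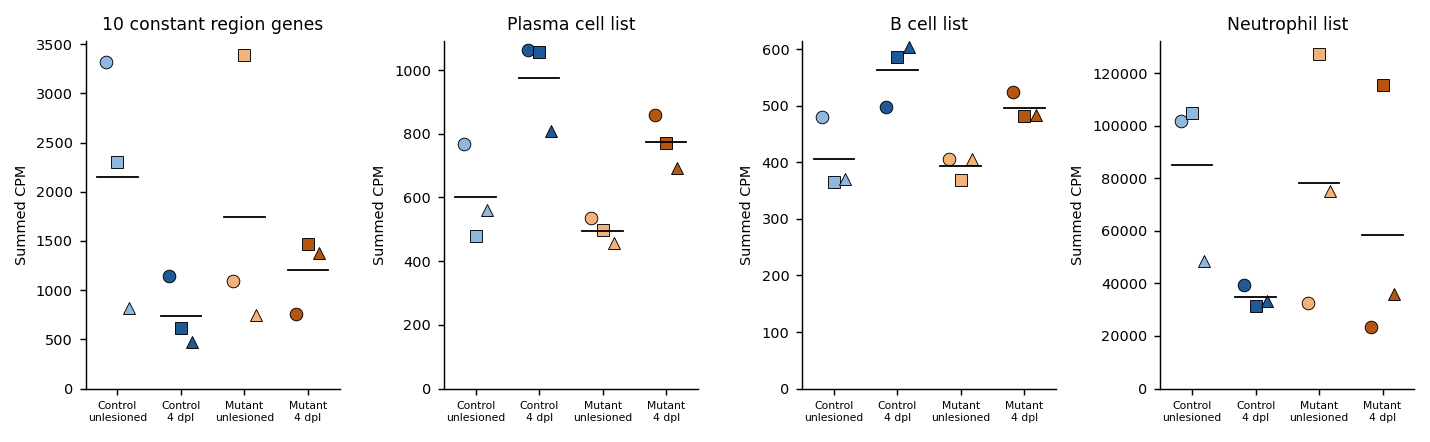
Summed CPM of the 10 constant region genes and of the plasma cell, B cell and neutrophil lists in each library by group; circles, squares and triangles are replicates 1, 2 and 3 and the bars are group means. Mutant unlesioned replicate 2 has the highest value for the constant genes (3389 CPM) and for the neutrophil genes (127148 CPM), while the sums of the plasma cell and B cell lists are higher at 4dpl.

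Of 11 T cell genes, led by Lck and Trbc2, 0 were called in either lesion contrast. Of 7 fibroblast and meningeal genes tested, Col1a1, Col1a2 and Col3a1 were called higher and Slc47a1 lower in the control at 4dpl and 0 in the mutant, and of 7 endothelial genes, led by Pecam1 and Kdr, 0 were called in either. Of 12 oligodendrocyte genes 3 (Pdgfra, Cspg4 and Mobp), of 8 microglial genes 2 and of 6 astrocyte genes 2 (Gfap and Gja1) were called higher in the control, and 0 of each in the mutant. Of 8 neuronal genes, led by Tubb3 and Snap25, 0 were called in either.

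Among 16159 genes outside the immunoglobulin loci with a mean of at least 1 CPM, the 5 whose log2 CPM over the 12 libraries was most like the summed level of the constant genes were Mzb1, 9130230N09Rik, Tesc, Tnfrsf18 and Palm. Pearson's r was 0.952, 0.924, 0.924, 0.921 and 0.912, given as a description over libraries that also share depth and cell make-up. Mzb1 had a mean of 4.17 CPM and Palm, a membrane protein gene expressed in many tissues, one of 54.6 CPM.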

How the data were processed

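RNA-seq of 12 libraries was used, 3 in each of 4 groups assigned by the labels. The authors sequenced paired ends of 100 bases, aligned reads with BWA to mm10 (the submitters' processing notes name STAR and DESeq2 1.2.5) and counted uniquely aligned reads on Ensembl exons with featureCounts. They deposited raw counts, which are not normalized. Genes were filtered by filterByExpr of edgeR 4.0.16 (R 4.3.3), scaled by TMM and tested with glmQLFit and glmQLFTest in one fit of 4 group means. Calls followed the study's thresholds, 0.01 for the p-value and 0.05 after Benjamini-Hochberg adjustment over all 31109 genes. Standard errors were derived from the F statistic. Alternatives were DESeq2 1.42.0, RLE size factors, other filters, fits to the groups compared, the adjusted p-value alone, replicate blocks and leaving out each library. Tested on simulated counts of 29268 genes, 200 of them changed (log2 change 3), edgeR recovered 97.5% with 9 false calls and DESeq2 98% with 51 in the mutant lesion contrast. Libraries of a group differed by far more than sampling noise (chi-square per degree of freedom at least 66.6).

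The members and lists were chosen with earlier results of these data known. Named were the members, other constant genes, called genes of each list or else its 2 highest, the leading variable segments, and the 5 genes most like the summed level. Mzb1, Tnfrsf17, Prdm1, Sdc1, Irf4, Eaf2 and Derl3 were added after their values were seen. Some genes of the lists are not reported here by name. Segments at 2000 reads are expected numbers under random thinning. Sequences were read from GENCODE M21 transcripts (GRCm38).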

Additional observations from a re-analysis of the deposited data

How the results depend on the processing

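Depth limits Ighg1 and Ighg3 most, which had 0 to 30 counts in the 4dpl libraries. The adjusted p-value alone, RLE size factors and a minimum of 10 counts in 3 libraries left 0 of the 10 genes called in the mutant lesion contrast, both genotype comparisons and the interaction. In the mutant lesion contrast DESeq2 called 2 (Ighg1 and Iglc2), the fit without a filter 1 (Ighg1), and leaving out 1 library gave 0 to 1. The 1 was Ighg1 without mutant unlesioned replicate 1, a fit that called 3430 of all 33564 genes. Unlesioned, the fit without a filter called 1, Ighg3, among 9 of 51033 genes. Leaving out a library gave 0 in the 2 genotype comparisons and the interaction. For the marker lists the control lesion contrast had 23 calls, against 48 with DESeq2, 15 in the fit of the groups compared and 0 to 36 with 1 library left out. The mutant lesion contrast had 12 with DESeq2, 4 without a filter, 2 in the fit of the groups compared and 0 to 12 with 1 library left out (12 without control unlesioned replicate 1 or mutant unlesioned replicate 1). DESeq2 called 1 list gene between genotypes unlesioned and 2 at 4dpl. Over all genes the control lesion contrast had 3150 calls, 6996 with DESeq2, 1162 in the fit of the groups compared and 1002 with the paper's numbers as a block, and the mutant contrast 42, 5295 with DESeq2, 947 without a filter, 772 from its own 6 libraries and 0 under either block. With 1 library left out these were 1 to 7401 and 0 to 4498. DESeq2 called 45 genes between genotypes unlesioned and 227 at 4dpl, where edgeR called 0 in the main fit. Without a filter edgeR called 9 unlesioned and 4 at 4dpl. With 1 library left out it called 0 to 1 unlesioned and 0 to 48 at 4dpl. The causes were not tested.

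The replicate numbers of the labels gave correlations of deviations from the group means of 0.05 to 0.19 in the control and -0.07 to 0.07 in the mutant, so they were not taken as pairs. With these numbers as a replicate block, 0 of the 10 genes were called in each tested comparison, the control list calls were 36, and in the unlesioned comparison Igha was at -0.0056 and Iglc1 at 0.10, both reversed. With the paper's sample numbers as the block, the control list calls were 11, the mutant had 0 of 10, and the control median was -0.95 in place of -1.76. With 1 library left out that median was between -2.35 and -1.04.

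Signs that changed belonged to differences that were not called. The control lesion contrast with 1 library left out ranged from -0.80 to 0.023 for Ighm, -4.59 to -0.013 for Ighg2b and -2.10 to -0.016 for Ighg2c. In the mutant lesion contrast Ighm was at -0.071 in the fit of the groups compared. With 1 library left out, the ranges there were -0.20 to 1.39 for Ighg2c, -1.28 to 0.30 for Igha, -0.82 to 0.53 for Igkc and -1.34 to 0.057 for Jchain, the last 3 being above 0 without mutant unlesioned replicate 2. Between genotypes unlesioned they were -4.19 to 0.41 for Ighg1, -1.43 to 0.10 for Ighg2c, -1.09 to 0.95 for Igha, -2.84 to 0.36 for Iglc1, -0.28 to 1.17 for Iglc2 and -0.79 to 0.81 for Jchain. At 4dpl they were -0.73 to 4.70 for Ighg2b, -0.086 to 2.06 for Ighg2c, -2.36 to 0.25 for Ighg3 and -2.64 to 0.34 for Iglc1. The fit of the groups compared kept 9 of the 10 genes in the mutant lesion contrast and 8 between genotypes at 4dpl.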
